A study of Mus musculus with 42 samples.

Results

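The contractile genes of smooth muscle were followed in aorta and skeletal muscle of healthy and diabetic mice. The 10 genes were chosen by name: the actins Acta2 and Actg2, the myosin heavy chain Myh11, the myosin light chain kinase Mylk, the actin-binding proteins Cnn1, Tagln, Smtn and Lmod1, the intermediate filament protein Des, and Myocd, a coactivator of their transcription. They are 10 of the 21186 gene symbols on the array and are read by 18 of its 41174 probes. All 10 passed the filter on dim signals in both tissues. Total RNA of both tissues from 3 male mice of each of 7 groups had been hybridised to 42 single-colour arrays, 1 array per sample. Healthy mice were C57BL/6. Diabetic mice were KK/Ay, a strain that becomes obese and diabetic by itself. The macroangiopathy group was KK/Ay on a high-fat diet with L-NAME, which blocks nitric oxide synthase, in the drinking water. The SHENQI, yangyinyiqi, huoxue and rosiglitazone groups were mice of that same model given SHENQI compound, its yangyinyiqi part, its huoxue part or rosiglitazone. Every comparison with the healthy group is therefore also one between strains, and the treated groups share strain, diet and L-NAME with the macroangiopathy group. Values are log2 intensities after background correction and quantile normalization. A gene was called where its adjusted p in limma was below 0.05 over all genes tested in the tissue, 15871 in aorta and 14228 in skeletal muscle. The number of arrays, 3 per group, limits the precision.

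Smooth muscle contracts when calcium and calmodulin activate Mylk, which phosphorylates the myosin light chain and lets Myh11 pull on filaments of Acta2 and Actg2. Cnn1, Tagln, Smtn and Lmod1 bind or organise those filaments, and Des links them to the rest of the cell. Myocd acts with serum response factor (SRF) on a DNA element called the CArG box, and vascular smooth muscle that leaves its contractile state is known to lose expression of most of these genes. Des is also a main protein of skeletal and heart muscle.

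The probe sequences show what the arrays read. Those printed here lie in coding sequence, that of Des running through the stop codon, and were chosen because the results turn on their genes. Coordinates are those of mm9 in the annotation on the array, and each probe is 60 bases long.
Acta2 probe A_51_P450957: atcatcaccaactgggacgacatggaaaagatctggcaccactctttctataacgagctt
Myh11 probe A_51_P362429: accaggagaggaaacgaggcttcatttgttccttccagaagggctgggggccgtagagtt
Mylk probe A_52_P145912: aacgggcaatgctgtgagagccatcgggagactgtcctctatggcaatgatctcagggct
Tagln probe A_52_P517683: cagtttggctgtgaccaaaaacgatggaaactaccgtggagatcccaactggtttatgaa
Smtn probe A_51_P479786: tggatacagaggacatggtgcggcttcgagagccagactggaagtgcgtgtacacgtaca
Des probe A_51_P335969: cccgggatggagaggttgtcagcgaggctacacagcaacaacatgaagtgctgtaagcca

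The Acta2 probe lies at chr19:34322995-34326249 on the minus strand. Its 60 bases are spread over 3255 bases of genome, so that it spans a junction between exons. The probes of Myh11 (chr16:14195223-14198147, minus strand) and Des (chr1:75363404-75363629, plus strand) span junctions as well, over 2925 and 226 bases. Those of Mylk (chr16:34995162-34995221, plus strand), Tagln (chr9:45738916-45738975, minus strand) and Smtn (chr11:3420834-3420893, minus strand) cover unbroken stretches of genome. Acta2 was read by 5 probes, Mylk by 3, and Tagln and Myocd by 2 each. The other genes had 1 probe each. No spot of a member was saturated on any array.

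The bases before the start of Acta2 are shown because they hold 2 near copies of the element through which Myocd and SRF act. The RefSeq promoter table of build GRCm38.p6 held 6 of the members (Acta2, Cnn1, Des, Lmod1, Mylk and Smtn). In it the 250 bases before the Acta2 start are chr19:34255374-34255623, minus strand.
Acta2 upstream: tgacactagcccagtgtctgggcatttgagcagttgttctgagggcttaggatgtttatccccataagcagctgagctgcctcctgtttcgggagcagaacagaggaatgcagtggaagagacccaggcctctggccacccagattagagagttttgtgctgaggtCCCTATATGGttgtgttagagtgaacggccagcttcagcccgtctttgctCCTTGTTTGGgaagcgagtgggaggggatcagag
The capitals mark matches to a loose CArG box, CCNNNNNNGG with at least 5 of the 6 middle bases A or T. They begin 84 and 34 bases before the start. The motif, which reads alike on both strands, was searched from 250 bases before to 50 after each start. Of all 32851 promoters, 9.98% held at least 1 match, and of the 6 members Acta2 was the 1 that did. With all 6 middle bases A or T, 1.63% of all promoters and 0 of the 6 members held a match.

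The members set aorta apart from skeletal muscle, with Des and Smtn as exceptions. In each of the 6 KK/Ay groups, 8 of the 10 members were higher in aorta, Des was lower and Smtn was not called (limma over all 42 arrays). Of the 16199 genes tested, 19.4% were higher in aorta in diabetic mice, 22.2% in macroangiopathy, 20.1% with SHENQI, 21.3% with yangyinyiqi, 24.7% with huoxue and 21.6% with rosiglitazone, and 40.4%, 45.6%, 42.4%, 44.2%, 50.5% and 47% differed in either direction. In macroangiopathy Cnn1, an inhibitor of the myosin motor, was 78.1-fold higher in aorta (log2 difference 6.29 ± 0.77 SE, adjusted p = 7.96e-08). Myh11 was 35.0-fold higher (5.13 ± 0.69, adjusted p = 4.27e-07) and Tagln 25.5-fold (4.67 ± 0.52, adjusted p = 1.08e-08). Actg2 was higher by 3.91 ± 0.68 (adjusted p = 2.37e-05), Lmod1 13.8-fold, Myocd 7.79-fold, Acta2 7.38-fold and Mylk 6.57-fold. Des went the other way, with a log2 difference of -4.83 ± 0.61 (SE, adjusted p = 1.46e-07). Smtn differed by 0.84 ± 0.49 (SE, adjusted p = 0.17).

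In healthy mice fewer members separated the tissues. There 5 of the 10 (Myh11, Cnn1, Tagln, Myocd and Lmod1) were higher in aorta, as were 14.4% of all genes (30.6% differed in either direction), Des was lower, and Acta2, Actg2, Mylk and Smtn were not called. The log2 difference was 2.05 ± 0.69 (SE) for Myh11 (adjusted p = 0.0234 in limma) and 1.03 ± 0.68 for Actg2 (adjusted p = 0.273). With healthy aorta array 1 left out, 8 members were higher in aorta, Des was lower and Smtn was not called. Myh11 then differed by 3.44 ± 0.55 (SE, adjusted p = 1.26e-05 in limma). The share of all genes called between tissues without that array was not computed, so the 8 cannot be set against it.

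**Figure D1:**
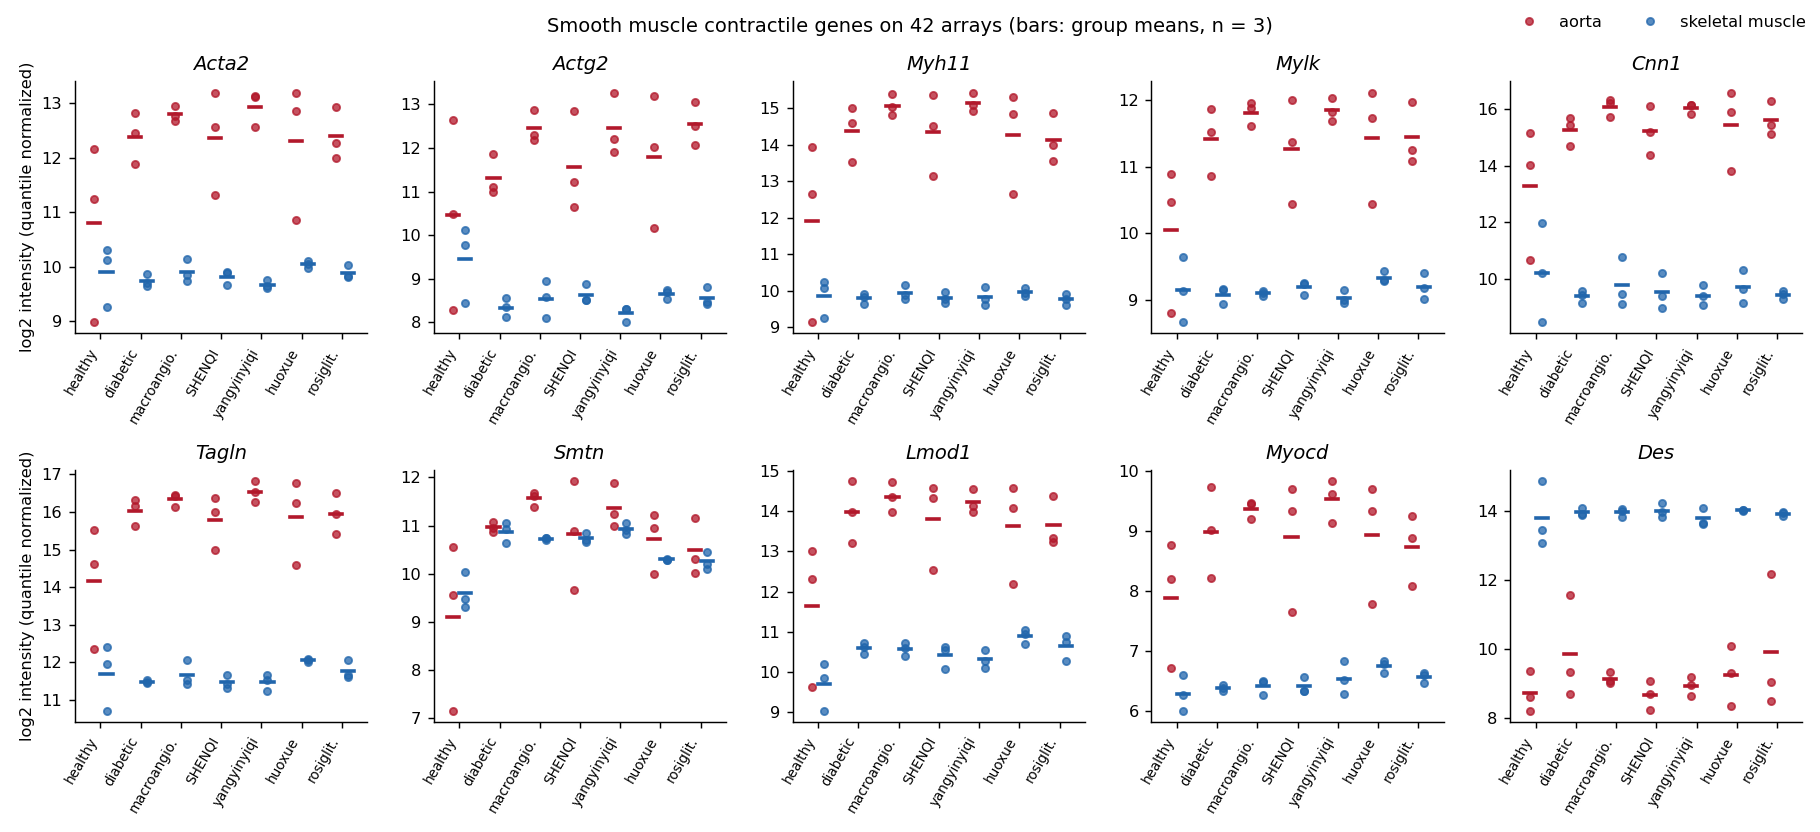
Log2 intensity of the 10 members on the 42 arrays, with the 7 groups along each horizontal axis, aorta and skeletal muscle in different colours and bars for the means of 3 arrays. In the KK/Ay groups aorta lies above skeletal muscle for 8 genes and below it for Des, and healthy aorta 1 is the lowest aorta array for all members but Des.

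The probes of Acta2 gave unlike contrasts between tissues. Its probe A_52_P420504, read on 10 spots per array, had a median of 17.54 over the aorta arrays and of 12.54 over those of skeletal muscle. For the coding-sequence probe printed above the medians were 14.52 and 15.09, and its aorta mean differed from the muscle mean by -0.78, while the other 4 probes were higher in aorta by 2.25 to 4.37. Coding sequences of actin genes are closely alike, and Acta1, the skeletal muscle actin, lay between 17.30 and 17.71 in skeletal muscle. Whether its RNA binds this probe was not tested. Without this probe, a choice made after its values were seen, Acta2 differed between tissues by 3.71 ± 0.54 (SE, adjusted p = 1.41e-06 in limma) in macroangiopathy and by 1.64 ± 0.54 (adjusted p = 0.02) in healthy mice. The Mylk probe A_51_P272407 was well above background on 0 of 21 skeletal muscle arrays and on 20 of 21 aorta arrays.

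Within aorta, 1 array stood apart. Myh11 was at 9.15, 13.94 and 12.64 in healthy 1, 2 and 3, at 15.01, 13.53 and 14.61 in the diabetic group and at 14.82, 15.02 and 15.38 in macroangiopathy. It was at 14.51, 13.13 and 15.37 with SHENQI, at 15.10, 14.93 and 15.43 with yangyinyiqi, at 12.65, 14.85 and 15.30 with huoxue and at 13.55, 13.99 and 14.88 with rosiglitazone. Healthy 1 thus lay 5.72 below the median of the 18 KK/Ay arrays, a 52.7-fold difference, and huoxue 1 and SHENQI 2 were the lowest KK/Ay arrays. For the other members healthy 1 lay below that median by 5.10 (Cnn1), 4.50 (Lmod1), 3.90 (Tagln), 3.87 (Smtn), 3.85 (Actg2), 3.73 (Acta2), 2.90 (Mylk), 2.59 (Myocd) and 0.45 (Des). In a piece of tissue, fewer smooth muscle cells and less RNA per cell cannot be told apart.

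Healthy 1 also stood apart in markers of other cells. The log2 summed intensity of 7 genes of B lymphocytes, a list added after the values were seen, was highest in healthy 1, at 16.83, and was 10.86 in healthy 2 and 13.15 in healthy 3. Ms4a1, the B cell antigen CD20, was at 12.54 in healthy 1, and Cxcl13, a chemokine that attracts B cells, at 14.26 against a median of 7.91 over the aorta arrays. B lymphocyte sums of 15.22 to 16.31 also occurred in huoxue 2, yangyinyiqi 2, SHENQI 2 and macroangiopathy 3, where Myh11 was at 14.85, 14.93, 13.13 and 15.38. Lists for mural cells of small vessels, endothelium, fibroblasts of the outer coat, heart muscle, brown fat, red cells and Schwann cells each had their lowest value in healthy 1. So did 6 smooth muscle genes outside the members, at 13.83 against a median of 17.36. The macrophage list was at 14.26 there, within its range of 11.71 to 14.95. The heart muscle list holds Actc1, whose values were like those of the members (r = 0.970 with their mean standardized values in aorta). Of the 6 mural genes 1 is also in the lists of contraction partners or synthetic state genes given below. Adipoq and Ucp1, genes of white and brown fat, were at least at 13.02 and 14.98 on every aorta array. The part of these other cells in the differences between groups was not tested.

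**Figure D2:**
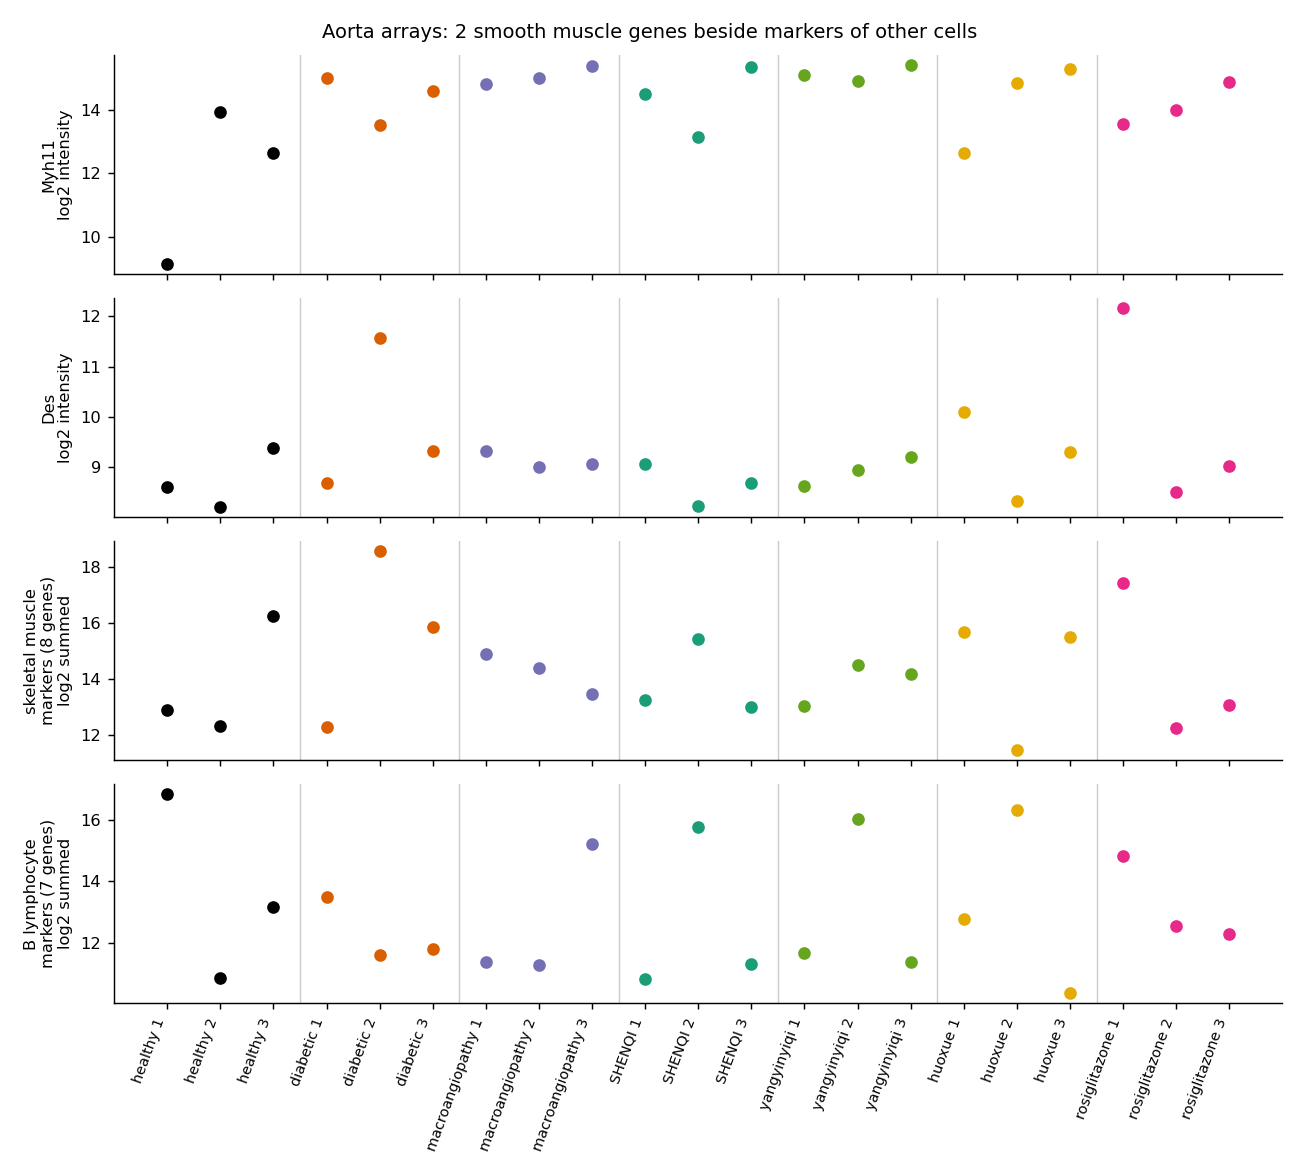
Log2 intensity of Myh11 and Des, and log2 summed intensity of 8 skeletal muscle markers and 7 B lymphocyte markers, on the 21 aorta arrays coloured by group. Healthy 1 is lowest for Myh11 and highest for the B lymphocyte markers, while diabetic 2 and rosiglitazone 1 are highest for Des and for the skeletal muscle markers.

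All 10 members had a higher mean in diabetic than in healthy aorta, but 0 were called (smallest adjusted p = 0.111 in limma), where 3.43% of genes were. At an unadjusted p below 0.05, 7 members passed, all higher in the diabetic group, beside 18.7% of all genes. The median log2 difference was 1.73 over the members and 0.02 over all genes. Among the filament proteins Myh11 differed by 2.48 ± 0.93 (SE, adjusted p = 0.158 in limma), Acta2 by 1.59 ± 0.69 and Actg2 by 0.85 ± 0.88. Lmod1, which nucleates actin filaments, differed by 2.33 ± 0.77 and Smtn by 1.87 ± 0.66. For the kinase Mylk the difference was 1.36 ± 0.51 and for Myocd 1.10 ± 0.61. Des differed by 1.13, with diabetic arrays from 8.69 to 11.56, the highest being diabetic 2, against 8.21 to 9.37 in healthy aorta. The arrays of the groups did not overlap for Tagln, Smtn and Lmod1, as was so for 10.1% of all genes with the diabetic group higher.

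Macroangiopathy aorta had Smtn and Lmod1 higher than healthy aorta. Smtn, an actin-binding protein of contractile cells, was at 7.16, 10.56 and 9.56 in healthy aorta and at 11.39, 11.68 and 11.62 in macroangiopathy. It differed by 2.47 ± 0.66 (SE, adjusted p = 0.0366 in limma), or 5.54-fold. Lmod1 was at 9.62, 13.00 and 12.32 against 13.99, 14.35 and 14.74, a difference of 2.71 ± 0.77 (SE, adjusted p = 0.0465 in limma), or 6.56-fold. For both genes every macroangiopathy array lay above every healthy array. These 2 of 10 stand beside 6.36% of all genes called, 3.26% of genes being called higher, and 9 members, all but Des, passed an unadjusted p of 0.05 beside 24.2% of genes. Myh11 (3.17 ± 0.93 SE), Mylk (1.76 ± 0.51), Tagln (2.17 ± 0.64) and Cnn1 (2.80 ± 0.86) had adjusted p values of 0.0522, 0.0508, 0.0538 and 0.0605 in limma. Acta2, Actg2 and Myocd had differences of 2.00, 1.98 and 1.49, and Des of 0.41 ± 0.79. For 8 members the arrays did not overlap, with macroangiopathy higher, as for 16.5% of all genes. Actg2 overlapped because healthy 2, at 12.65, lay within the 12.19 to 12.87 of macroangiopathy.

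These differences leaned on healthy 1. Without it, 0 members were called in limma in either comparison, where 2.62% of genes were in diabetic and 3.89% in macroangiopathy against healthy aorta. At an unadjusted p below 0.05, 0 and 6 members passed, beside 13.4% and 19.3% of genes. The median member difference was 0.82 in place of 1.73 in diabetic and 1.20 in place of 2.08 in macroangiopathy. Myh11 then differed by 1.10 ± 0.73 (SE) and 1.79 ± 0.73, Smtn by 0.91 ± 0.53 and 1.50 ± 0.53, and Actg2 by -0.24 ± 0.81 and 0.89 ± 0.81. The calls of Smtn and Lmod1 were also lost without healthy 3 or without any 1 of the 3 macroangiopathy arrays. Without healthy 2, 5 members were called in diabetic and 8 in macroangiopathy aorta. The share of all genes called without healthy 2 was not computed, so these counts cannot be set against it. Markers of other cells also differed between the groups. In macroangiopathy against healthy aorta 3 of 3 red cell genes were higher (median 1.75, summed level 18.44 to 18.67 against 15.96 to 17.58), as were 4 of 6 smooth muscle genes outside the members and 1 gene each of the mural, fibroblast and Schwann cell lists, while 1 of 6 fat and 1 of 4 brown fat genes were lower. In diabetic aorta 1 of 3 red cell genes and 1 gene each of the mural, fibroblast and Schwann cell lists were higher, and 1 each of the fat lists lower. With all arrays, 6.36% of all genes were called in macroangiopathy and 3.43% in diabetic against healthy aorta. The part of these other cells in the members' differences was not tested. Healthy and macroangiopathy aorta shared no slide, so slide and group cannot be told apart there. Slide 1 held 1 diabetic and 2 healthy arrays, healthy 1 among them, and 9 of 10 members were higher on the diabetic array, with a median difference of 2.71.

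**Figure D3:**
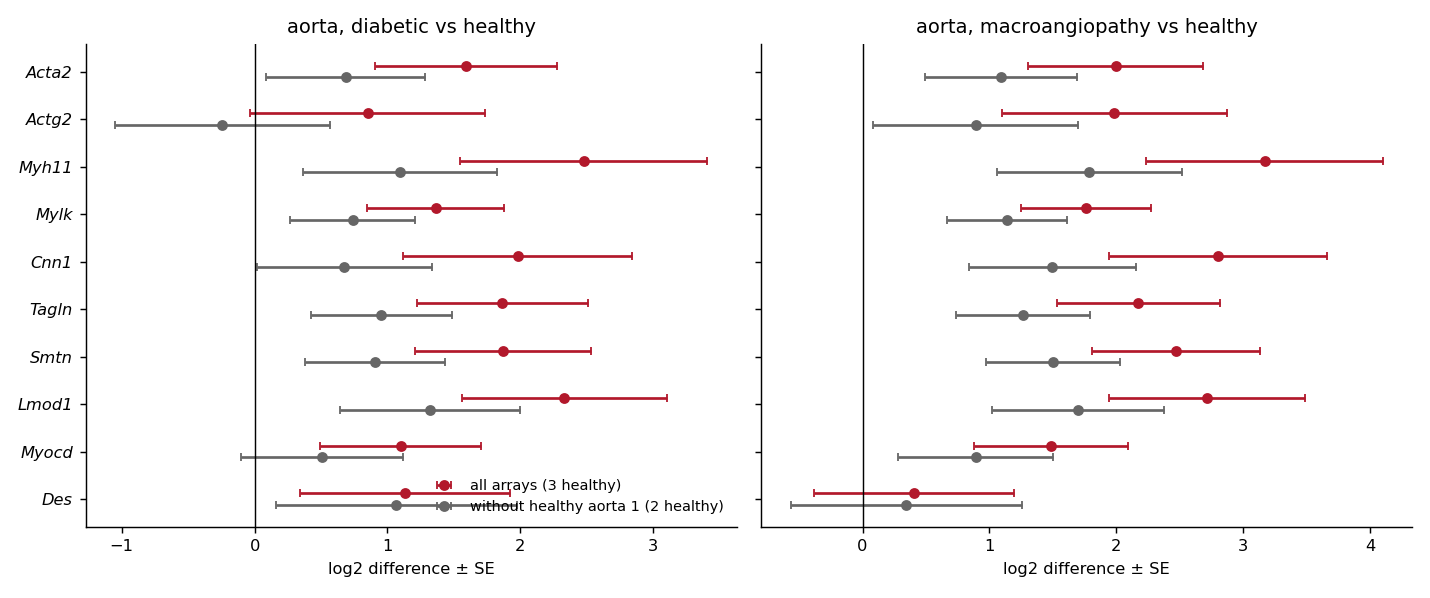
Log2 difference ± SE of the 10 members in aorta, diabetic (left) and macroangiopathy (right) against healthy, with all arrays and without healthy aorta 1 in different colours. With all arrays the 10 points lie above 0 in both panels, with medians of 1.73 and 2.08, and without healthy 1 the medians are 0.82 and 1.20.

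With high-fat diet and L-NAME added to the KK/Ay strain, 0 members were called in macroangiopathy against diabetic aorta (limma), as were 0% of all genes, and 0 had an unadjusted p below 0.05, beside 1.78% of genes. The differences ran from -0.72 ± 0.79 (SE) for Des to 1.13 ± 0.88 for Actg2, with a median of 0.40. Actg2 was at 10.98, 11.11 and 11.87 in diabetic and at 12.29, 12.19 and 12.87 in macroangiopathy aorta. Its arrays did not overlap, nor did those of Cnn1 and Smtn, which was so for 5.43% of all genes with macroangiopathy higher. Diabetic and macroangiopathy aorta shared no slide, so slide and group cannot be told apart there.

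No member was called under treatment in aorta. Against macroangiopathy, 0 members were called in limma with SHENQI, yangyinyiqi, huoxue or rosiglitazone, as were 0% of all genes in each. At an unadjusted p below 0.05, 0 members passed in each, beside 1.35%, 0.378%, 0.769% and 2.89% of genes. These comparisons share the 3 macroangiopathy arrays. All of them lay on slide 6, which held 1 other aorta array, yangyinyiqi 1. With SHENQI, huoxue and rosiglitazone no slide held both groups, so slide and group cannot be told apart in a direct comparison. With SHENQI 10 of 10 members had a lower mean (median difference -0.55), with huoxue 9 (-0.57), with rosiglitazone 8 (-0.43) and with yangyinyiqi 4 (0.02). The difference with the smallest p was that of Smtn with rosiglitazone, at 10.01, 10.32 and 11.16 against 11.39, 11.68 and 11.62, or -1.06 ± 0.66 (SE, unadjusted p = 0.127 in limma). These arrays did not overlap, nor did those of Smtn with huoxue, the highest at 11.23 (-0.83 ± 0.66), where 15.3% and 7.45% of all genes did not overlap in either direction. The medians turned on single arrays and settings. Without SHENQI 2 the median with SHENQI was -0.14, and without huoxue 1 that with huoxue was 0.12. Array weights, chosen after seeing the data, gave -0.16 with SHENQI and -0.20 with huoxue, and slide as a fixed block gave -1.64 with rosiglitazone. Standard errors ran from 0.51 for Mylk to 0.93 for Myh11.

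The order of the groups in aorta was not settled by these arrays. Mean Myh11 was 15.15 ± 0.26 (SD, n = 3) with yangyinyiqi, 15.08 ± 0.29 in macroangiopathy, 14.39 ± 0.76 in diabetic mice, 14.34 ± 1.13 with SHENQI, 14.27 ± 1.42 with huoxue, 14.14 ± 0.68 with rosiglitazone and 11.91 ± 2.48 in healthy mice. Each mean lay closer to the next than the larger of their SDs. A test of any difference among the 7 groups called 0 of 10 members in aorta (adjusted p from 0.39 to 0.992 in limma), beside 1.32% of genes, and Smtn, Tagln, Lmod1 and Mylk had an unadjusted p below 0.05.

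Array by array, the contractile genes of aorta varied together, except Des. Over the 21 arrays the Pearson r with Myh11 was 0.988 for Acta2, 0.986 for Tagln, 0.984 for Lmod1, 0.982 for Mylk and Cnn1, 0.965 for Smtn and 0.939 for Myocd. Each had a permutation p of 1e-05, the smallest that 100000 resamples give (1.29e-05 adjusted over the 9 relations), and Spearman's rho from 0.917 to 0.952. Without healthy 1 and healthy 3, the arrays farthest from the median of Myh11, r was still 0.887 to 0.972 for these 7. Actg2, an actin best known from gut and other visceral smooth muscle, followed less closely (r = 0.830, rho = 0.679, permutation p = 4e-05 and 0.00086), and its r was 0.599 without those arrays. For Des r was -0.110 (permutation p = 0.595; rho = -0.088, p = 0.703). The arrays share groups, and r of the deviations from the group means was 0.922 to 0.985 for the first 7, 0.846 for Actg2 and -0.305 for Des.

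**Figure D4:**
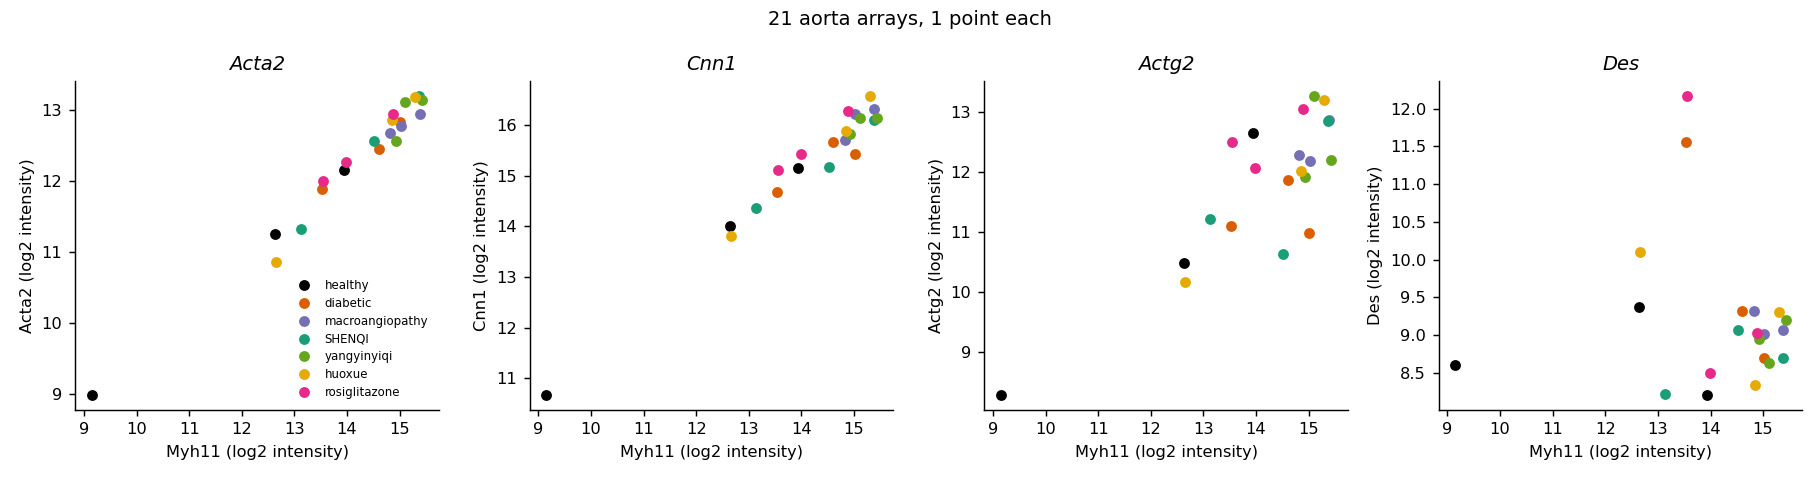
Log2 intensity of Acta2, Cnn1, Actg2 and Des against that of Myh11 on the 21 aorta arrays, 1 point per array, coloured by group. Acta2 and Cnn1 follow Myh11 from healthy 1 at 9.15 upward (r of 0.988 and 0.982), Actg2 scatters more (0.830), and Des shows 2 high arrays off the rest.

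The genes outside the list whose values were most like the mean of the standardized member values were Ppp1r14a, Pdgfa, Tpm2, Bcam and Wfdc1, with r of 0.985, 0.985, 0.984, 0.980 and 0.979 over 21 arrays, out of 15812 genes compared. Ppp1r14a inhibits the phosphatase that opposes Mylk, and Tpm2 is a tropomyosin of the thin filament. Pdgfa is a growth factor ligand and Bcam a laminin receptor of the cell surface. These r values are a description, since all genes are read on the same arrays.

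Des differed from the other members in what it moved with. It lay between 8.21 and 9.37 on 18 of the 21 aorta arrays, and reached 10.10 in huoxue 1, 11.56 in diabetic 2 and 12.17 in rosiglitazone 1. The summed intensity of 8 skeletal muscle genes was highest on diabetic 2 (18.58) and rosiglitazone 1 (17.43) and had a median of 14.17. Ckm, the creatine kinase of muscle, was at 14.15 and 13.35 on these 2 arrays against a median of 8.94 in aorta. Over the 21 arrays r of Des with that sum was 0.809 (permutation p = 1e-05, rho = 0.821, p = 2e-05), and 0.673 without the 2 arrays, while Myh11 had r = -0.170 (p = 0.466, rho = -0.281, p = 0.216). This pair of relations was chosen after the values were seen, and the adjusted p values over it are 2e-05 and 0.466 for r. In skeletal muscle itself Des ran from 13.07 to 14.87.

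Partners and regulators of contraction, a list of 50 genes, had the same direction as the members in aorta. All 6 smooth muscle genes outside the members, given above, are also in this list or the next, so the counts share genes. In diabetic against healthy aorta 0 were called in limma, beside 3.43% of genes. At an unadjusted p below 0.05, 31 were higher and 0 lower, beside 18.7% of genes in either direction. The median difference was 0.91 against 0.02 for all genes. In macroangiopathy against healthy aorta 9 were higher (0 lower), beside 6.36% of genes called, and the median was 1.15. The first 5 were the myosin light chain Myl9 (2.11 ± 0.54 SE, adjusted p = 0.0297 in limma), Tpm2 (2.88 ± 0.73), the integrin Itga8 (3.01 ± 0.77), the calcium channel Cacna1c (1.19 ± 0.31) and the actin-bundling Synpo2 (1.63 ± 0.44). Srf, the partner of Myocd, was among the 9, with 1.15 ± 0.32. Without healthy 1, 0 of the 50 were called, beside 2.62% and 3.89% of genes, and the medians were 0.59 and 0.70.

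Genes of the synthetic state, in which smooth muscle cells divide and lay down matrix, gave a list of 20. In diabetic against healthy aorta 0 were called in limma, beside 3.43% of genes. At an unadjusted p below 0.05, 5 of the 20 were higher and 0 lower, beside 18.7% of genes in either direction. In macroangiopathy the matrix Gla protein Mgp was higher (2.98 ± 0.60 SE, adjusted p = 0.00975 in limma), and the median over the list was 0.42. Without healthy 1, 2 were called beside 3.89% of genes, Mgp (2.24 ± 0.55) and S100a4 (1.85 ± 0.49). In the other 5 aorta comparisons 0 genes of either list were called (limma), and at an unadjusted p below 0.05 there was 1, a lower partner gene in macroangiopathy against diabetic.

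In skeletal muscle, where these genes come from vessels and other cells around the fibres or from the fibres themselves, 3 members were called in both KK/Ay groups against healthy mice, a share near that of all genes. Smtn and Lmod1 were higher and Actg2 lower in diabetic and in macroangiopathy muscle, 3 of 10 beside 26.4% and 24.8% of all genes called. Of all genes 15.6% were higher and 10.8% lower in diabetic, and 14.7% and 10.2% in macroangiopathy muscle. The same number of members, 3, had an unadjusted p below 0.05 in each, beside 38% and 36.7% of genes. Smtn was at 9.47, 10.04 and 9.30 in healthy muscle, at 11.06, 10.64 and 10.93 in diabetic and at 10.74, 10.69 and 10.74 in macroangiopathy muscle. No diabetic or macroangiopathy array overlapped a healthy one, as for 30.6% and 30% of all genes. Smtn differed by 1.27 ± 0.15 (SE, adjusted p = 1.94e-05 in limma) or 2.41-fold in diabetic, and by 1.12 ± 0.15 (adjusted p = 6.34e-05) or 2.17-fold in macroangiopathy muscle. Its calls were kept with any 1 array of the compared groups left out.

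Lmod1 was at 10.18, 9.84 and 9.03 in healthy muscle, at 10.72, 10.44 and 10.61 in diabetic and at 10.39, 10.72 and 10.59 in macroangiopathy muscle. It differed by 0.91 ± 0.23 (SE, adjusted p = 0.00913 in limma) and 0.88 ± 0.23 (adjusted p = 0.0111), with no overlap. Its calls were kept with any 1 array left out, at 0.58 and 0.56 without healthy 3. Over 16 other settings of the processing and fit Lmod1 was called in 11 in diabetic and 12 in macroangiopathy muscle. Smtn was called in 14 of the 16 in each. Actg2 was at 10.11, 9.78 and 8.43 in healthy, at 8.11, 8.34 and 8.56 in diabetic and at 8.59, 8.95 and 8.10 in macroangiopathy muscle. Healthy 3 lay within the range of the KK/Ay arrays. Actg2 had 1 probe, and whether RNA of other actin genes binds it was not tested. The differences were -1.10 ± 0.30 (SE, adjusted p = 0.0133 in limma) and -0.90 ± 0.30 (adjusted p = 0.0397). The diabetic call was lost without healthy 1 (-0.77, adjusted p = 0.0732) or diabetic 1 (-0.99, adjusted p = 0.056). The macroangiopathy call was lost without healthy 1 (-0.56, adjusted p = 0.194), healthy 2 (-0.73, adjusted p = 0.112), macroangiopathy 1 (-0.92, adjusted p = 0.087) or macroangiopathy 3 (-0.67, adjusted p = 0.171).

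**Figure D5:**
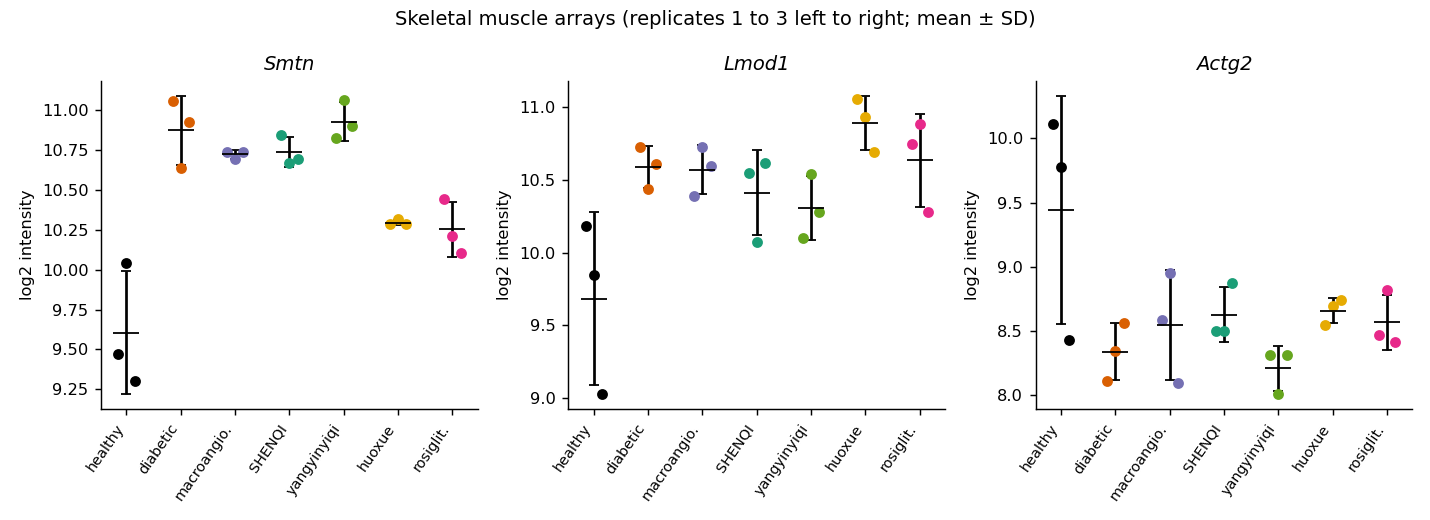
Log2 intensity of Smtn, Lmod1 and Actg2 on the 21 skeletal muscle arrays, replicates 1 to 3 from left to right within each of the 7 groups, with mean ± SD. Healthy arrays are the lowest group for Smtn (means 9.61 against 10.25 or more), and for Actg2 healthy 3 lies with the other groups while healthy 1 and 2 lie above them.

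Healthy muscle arrays were unlike one another, and they shared no slide with the diabetic and macroangiopathy arrays, so slide and group cannot be told apart. Healthy 1 and 2 lay on slide 3, scanned on another day, and healthy 3 on slide 4. Cnn1 was at 11.97, 10.23 and 8.49, Des at 13.07, 13.45 and 14.87, and the heart actin Actc1 at 13.59, 13.00 and 9.04 in healthy 1, 2 and 3. Without healthy 3, 7 members were called in diabetic and 5 in macroangiopathy muscle in limma. The share of all genes called without healthy 3 was not computed, so these counts cannot be set against it. With slide 3 as a batch term, chosen after seeing the data, Actg2 differed by -0.55 (adjusted p = 0.187 in limma) in diabetic and -0.34 (adjusted p = 0.424) in macroangiopathy muscle. Of the macrophage list 4 of 5 genes were lower in both KK/Ay groups than in healthy muscle, and of the red cell list 3 of 3 in diabetic and 1 of 3 in macroangiopathy. Of the fat list 2 of 6 were lower in both, and of the B lymphocyte list 1 of 5 and 2 of 5. Brown fat genes went the other way, with 3 of 3 higher in diabetic (median 1.41) and 2 of 3 in macroangiopathy muscle (median 0.94). Of all genes 10.8% were called lower and 15.6% higher in diabetic muscle, and 10.2% and 14.7% in macroangiopathy muscle. The summed macrophage level was 12.20 to 13.73 in healthy, 11.84 to 12.11 in diabetic and 11.86 to 12.09 in macroangiopathy muscle. The part of these cells in the members' differences was not tested.

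Among the partners, 11 were higher and 2 lower in diabetic than in healthy muscle, of 48 tested, and 10 were higher and 2 lower in macroangiopathy, shares close to the 26.4% and 24.8% of all genes called. Srf differed by 1.09 ± 0.17 (SE, adjusted p = 0.000185 in limma) and 1.07 ± 0.17 (adjusted p = 0.000253), and Mkl1, an actin-sensing coactivator of SRF, by 1.12 ± 0.17 and 0.77 ± 0.17. Synpo2 differed by 0.43 ± 0.11 and 0.49 ± 0.11. Rock2, a kinase that raises contraction, differed by 0.88 ± 0.19 and 0.54 ± 0.19. Of 18 synthetic state genes 1 was higher (the collagen Col8a1) in both comparisons. In diabetic muscle 3 were lower, Spp1 (-1.55 ± 0.40), Tpm4 and Cd44, and in macroangiopathy muscle 2, Spp1 and Tpm4.

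Against macroangiopathy muscle, 0 members were called in limma in any treated group. With huoxue 17.7% of all genes were called and with rosiglitazone 5.51%, while with SHENQI and yangyinyiqi 0% were. Huoxue muscle lay on slide 11 and rosiglitazone muscle on slides 3 and 11, and macroangiopathy muscle on slides 7 and 8, so slide and group cannot be told apart in these comparisons, whereas SHENQI shared slide 7 and yangyinyiqi slide 8 with it. Smtn was at 10.29, 10.32 and 10.29 with huoxue and at 10.45, 10.21 and 10.11 with rosiglitazone, below all 3 macroangiopathy arrays in both, and 49% and 36.2% of all genes likewise did not overlap in either direction. It differed by -0.43 ± 0.15 (SE, adjusted p = 0.0576 in limma) and -0.47 ± 0.15 (adjusted p = 0.0787). With slides 1, 3 and 11 as a batch term over 42 arrays the differences were -0.06 and -0.10 (adjusted p = 1 for both). At an unadjusted p below 0.05, 2 members passed with huoxue (Smtn, lower, and Myocd, higher by 0.33 ± 0.14), 1 with rosiglitazone (Smtn) and 0 with SHENQI and yangyinyiqi, beside 32.6%, 21.6%, 1.19% and 1.17% of genes. In macroangiopathy against diabetic muscle 0 members were called and 0 passed unadjusted, beside 0% and 3.68% of genes.

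Of the 48 partners, 2 were higher and 4 lower with huoxue than in macroangiopathy muscle, a smaller share than the 17.7% of all genes called. The first 5 were Rock1 (-0.51 ± 0.10 SE, adjusted p = 0.00234 in limma), Foxo4 (0.55 ± 0.12), Cald1 (-0.54 ± 0.15), Gata6 (-0.37 ± 0.11) and Rhoa (0.37 ± 0.12), of which Rock1 is a kinase that raises contraction and Rhoa the small GTPase that activates it. Of the synthetic state genes 5 were lower and 0 higher with huoxue, led by Mgp (-1.18 ± 0.24) and the filament protein Vim (-0.97 ± 0.20), and 1, Actb (-0.64 ± 0.15), was lower with rosiglitazone.

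Over the 7 groups, 2 members varied in skeletal muscle, Smtn (adjusted p = 3.94e-05 in limma) and Lmod1 (adjusted p = 0.0135), beside 36.2% of genes. Whether a difference itself differed between the tissues was tested by an interaction term, which called 0 of 10 members in each of the 7 comparisons, beside 0% to 3.17% of genes. The members with the smallest adjusted p were Mylk, whose macroangiopathy difference was larger in aorta by 1.81 ± 0.55 (SE, adjusted p = 0.0655 in limma), and Myh11, by 3.08 ± 0.98 (adjusted p = 0.0767). At an unadjusted p below 0.05, 8 members passed in that comparison and 5 in diabetic against healthy, beside 18.2% and 13.2% of genes. In macroangiopathy against diabetic, and with SHENQI, yangyinyiqi, huoxue and rosiglitazone, 0 did, beside 2.01%, 0.907%, 0.506%, 10.5% and 8.99%.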

How the data were processed

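The authors hybridised total RNA of aorta and skeletal muscle, 3 mice in each of 7 groups, to 42 single-colour arrays on 11 slides. Nothing ties the aorta of a mouse to its muscle by number. The deposited scanner files (Feature Extraction 10.7) give the spot intensity and local background of 45018 spots, 1639 of them controls, with all columns in 8 files and fewer in 34. The authors also deposited log2 values, which rank the probes of an array almost as its processed signal does (Spearman's rho at least 0.99995).

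Median intensities were corrected by normexp (offset 0), quantile normalized over 42 arrays and put on the log2 scale, with irregular spots missing. Spots and then probes of a symbol were averaged. A gene entered the tests if, in at least 1 group, 1 of its probes was well above background throughout (3 arrays). Tests were run in limma 3.58.1 (R 4.3.3) with lmFit and eBayes on the 21 arrays of a tissue, with Benjamini-Hochberg adjustment over all genes. Between tissues, all 42 arrays were fitted. Correlations used 100000 permutations (Python 3.11.15, numpy 2.4.6, scipy 1.17.1, pandas 2.3.3; figures matplotlib 3.10.9). Of the probes, 62.9% to 77.6% per aorta array and 53.8% to 70.0% per muscle array were well above background. The fit was tested on simulated data for diabetic against healthy. Of 100 genes changed by a log2 of 1 it recovered 46% in aorta (15822 genes) and 81% in muscle (14211 genes). Of 100 changed by 2 it recovered 84% and 97%. There were 9 false calls in aorta and 13 in muscle. The simulated noise was independent between genes, with the same spread in all groups. In aorta most members varied together, and the SD of Myh11 was 2.48 in healthy mice and 0.29 in macroangiopathy. These shares therefore do not carry over to the members.

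Named are all 10 members, up to 5 called genes per pathway list and comparison (and, chosen after their values were seen, Srf and S100a4 in aorta), the 5 genes most like the members, and at most 3 markers per cell list. Members and lists were chosen with earlier results of these data known. Alternatives were other background corrections, scalings, filters, probe rules, array sets, slide terms, a replicate block, array weights and leaving out arrays. Some items are not reported here. P-values measure the spread between these mice only.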

Additional observations from a re-analysis of the deposited data

How the results depend on the processing

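Smtn and Lmod1 in skeletal muscle kept their calls against healthy mice with each array left out. Both genes lost them under some of the other settings given below. The 2 calls in macroangiopathy against healthy aorta became 1 with a normexp offset of 50 or no filter, 4 with the brightest probe, 5 with a stricter filter, 0 with the processed signal over its 75th percentile, with only the 6 arrays compared or with slide as a random block, 9 with all 42 arrays fitted and 8 with slides 1, 3 and 11 as a batch term. Chosen after seeing the data, array weights gave 7 and slide 1 as a batch term 0. With the replicate number as a block there were 6 (Myh11, Cnn1, Tagln and Mylk added, adjusted p from 0.0314 to 0.0409 in limma). The numbers do not pair the samples (correlation of same-numbered arrays from -0.487 to 0.590 in aorta and from -0.558 to 0.627 in muscle), and the block changed no other count of calls within a tissue. The 0 calls in diabetic against healthy aorta became 6 with 42 arrays and 5 with the slide 1, 3 and 11 term. In skeletal muscle the 3 calls in diabetic and in macroangiopathy became 1 with 6 arrays and 0 with 42 arrays or the slide 1, 3 and 11 term, and in diabetic 1 with the random slide block. The 0 calls with huoxue became 1 with offset 50 or quantiles within tissue, 2 with 6 arrays and 4 with array weights, and with rosiglitazone 1 with 6 arrays or array weights. The cause was not tested. In these settings, and with single arrays left out, shares of all genes called were not computed, except within aorta without healthy 1.

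With 1 array left out, counts ran from 0 to 5 (diabetic) and 0 to 8 (macroangiopathy) against healthy aorta, from 2 to 7 and 2 to 5 in muscle, from 0 to 2 and 0 to 7 for the difference between tissues, and from 2 to 6 for any difference among groups in muscle. In diabetic aorta Des was -0.27 (adjusted p = 0.952 in limma) with slide as a fixed block, and Actg2 ran from -0.24 to 1.94 with 1 array left out. A fixed slide block could not be fitted where slides do not link the groups. Arrays with 3 mice per group limit what differences could be seen.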
